A study of Mus musculus with 24 samples.

Results

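The 32 genes described here are targets of p53, together with Trp53, which encodes p53, and Mdm4, which encodes one of its inhibitors. They were taken as a list of known targets, by gene symbol, from the 19880 genes of a deposited table of TPM. There a level is a gene's share of the transcripts in a library after correction for length. The list was not filtered by these levels, but it was chosen with earlier results of these data known. All 32 were in the table and passed the filter on low values that 13489 genes passed. The libraries were poly(A) RNA of tail fibroblasts from male C57/Bl6 mice 4 weeks of age. The study compared how cell-states drawn from a single pool of cells met proteasome inhibition. Immortalized fibroblasts had been transduced with a retrovirus carrying SV40 T, a viral protein that binds and blocks p53 and the RB family, and were a grown-out population and not a single clone. Proliferating fibroblasts were taken before confluence, senescent fibroblasts had been passaged serially until the cultures stopped expanding, and quiescent fibroblasts had been held at confluence. These 3 cell-states carried no T antigen and are called p53-competent here from how they were made, since no measurement of p53 protein was analysed. Each cell-state received 10 µM MG132, a peptide aldehyde that blocks the proteasome, or 0.1% DMSO for 8 h, which gave 8 groups of 3 libraries.

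p53 is a transcription factor that is kept scarce by the ubiquitin ligase Mdm2 and the proteasome, and Mdm2 is itself one of its targets, so that the pair forms a feedback loop. When DNA is damaged or other stress frees p53 from Mdm2 and from its relative Mdm4, p53 switches on genes that stop the cell cycle, repair DNA, adjust metabolism and redox state, or start apoptosis through the mitochondria. Large T antigen of SV40 binds the DNA-binding domain of p53, and many of these genes also answer to other stress factors such as ATF4.

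Size factors found by the median of ratios were taken out of the TPM of each library, and the scaled TPM that result are the levels given below. Differences are on the scale of log2(scaled TPM + 1), which understates the change of low genes, and a gene is called where the adjusted p of limma was under 0.05. The deposited values sum to the same total in every library, so the depth behind them is unknown. The number of genes above 0 ran from 16751 to 18161 per library. The size factors ran from 0.625 to 0.776 in MG132-treated immortalized and proliferating fibroblasts and from 1.06 to 1.27 in the other libraries. Without them the median of all tested genes stood at -0.45 between immortalized and p53-competent fibroblasts under MG132, at -0.57 in the MG132 response of immortalized fibroblasts and at -0.48 in that of proliferating fibroblasts, and changes are given relative to that shift. The fibroblast genes Col1a1, Col1a2, Vim and Thy1 were abundant in all groups, while Ptprc, Trp63 and Krt15 were at or near 0. Some other markers of further cell types were present. The immune markers Csf1r and Cd68 averaged 60.1 and 17.6 TPM in senescent MG132 libraries. The muscle marker Acta1 and the chondrocyte marker Sox9 averaged 349 and 46.95 in immortalized MG132 libraries. The other muscle markers in the table, Des and Myh3, averaged 0.793 and 0.0215 TPM there. The other chondrocyte markers, Comp, Col2a1 and Acan, averaged 0.898, 0.631 and 0.00357. Acta1 was not particular to that group, with 291 in proliferating DMSO libraries. Dcn and Lum, which are also fibroblast genes, averaged 0.806 and 0.0747 TPM in immortalized DMSO libraries. In the third proliferating DMSO library the mean log2 level of 15 HSF1 targets was 8.53, above the 6.14 to 7.80 of the other DMSO libraries. This library is named at several results that changed without it, but not at every one. Replicate numbers were shared by the groups in the labels, but the labels name no culture or day for a library. The study's methods describe experiments in general as independent repeats on separate days, and p-values here only measure how far these libraries scatter.

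Sequences upstream of transcription starts were searched for the p53 half-site, the palindromic decamer bound by a p53 dimer, which was taken by its consensus on both strands at once. RefSeq promoters of GRCm38.p6, each from 250 bases before to 50 bases after a start, matched 25 of the 32 genes. Not matched were Rrm2b, Pmaip1, Xpc, Trp53inp1, Perp, Ddb2 and Zmat3. A half-site lay in at least 1 promoter of 10 of the 25 genes (40.0%), against 9.55% of the 27025 genes with a promoter. No promoter of the 25 genes held a pair of half-sites with a spacer of at most 13 bases, which 0.074% of all genes had. The 7 half-sites of genes that were called in the comparison of immortalized with p53-competent DMSO libraries are shown, with the half-site in capitals and the flanks in lower case, because they are the letters against which the levels below can be read.
Ccng1 (chr11:40755437-40755496, minus strand, between genes): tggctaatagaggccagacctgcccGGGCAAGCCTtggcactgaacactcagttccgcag
Mdm2 (chr10:117710910-117710969, minus strand, between genes): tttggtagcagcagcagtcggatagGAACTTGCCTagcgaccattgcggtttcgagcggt
Trp53 (chr11:69580259-69580318, plus strand, between genes): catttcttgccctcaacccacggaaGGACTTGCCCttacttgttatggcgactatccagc
Polk (chr13:96519384-96519437, minus strand, in an intron of Polk): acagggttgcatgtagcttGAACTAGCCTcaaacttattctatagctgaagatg
Gadd45a (chr6:67037428-67037457, minus strand, in an exon of Gadd45a): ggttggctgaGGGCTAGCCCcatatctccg
Aen (chr7:78895927-78895956, plus strand, in an exon of Aen): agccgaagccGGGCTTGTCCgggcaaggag
Ei24 (chr9:36797325-36797354, minus strand, in an exon of Ei24): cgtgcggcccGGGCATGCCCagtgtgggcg

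The places are those of the GENCODE vM21 annotation. Bax, Rps27l and Sesn1 held half-sites too and were not called in that comparison. Of the 10 genes with a half-site, 5 were lower and 2 higher in immortalized than in p53-competent DMSO libraries, and of the 15 matched genes without one, 11 were lower and 3 higher. Over all tested genes 28.6% were lower and 28.4% higher. A half-site match is a string of letters and was not tested for binding. These windows cover introns only where they lie near an annotated start, and they do not cover distal sites.

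Under DMSO, p53 target genes were mostly lower in immortalized fibroblasts. Against the mean of the 3 p53-competent cell-states, 21 of the 32 genes were lower and 5 were higher, while 28.6% of the 13489 tested genes were lower and 28.4% higher. The median difference over the 32 genes was -0.51, against 0.0041 over all tested genes, and single differences ran from -2.34 for Trp53inp1 to 0.87 for Gadd45a. In all of the 3 pairs, with proliferating, senescent and quiescent fibroblasts each taken alone, 11 genes were lower, namely Ccng1, Zmat3, Trp53inp1, Eda2r, Phlda3, Polk, Ercc5, Sulf2, Dcxr, Ak1 and Btg2, against 10.6% of tested genes. Only Trp53 was higher in all of the 3 pairs, against 9.82% of tested genes, and this call was lost in 4 of 24 fits that left out 1 library, on TPM as deposited, with limma without its trend and with only the groups compared. All 3 immortalized DMSO libraries lay below all 9 p53-competent ones for 10 genes, the same 11 without Ercc5, against 12.6% of tested genes, and above them for Trp53, against 10.8%. For Ercc5 the third proliferating library, at 22.1 scaled TPM, lay within the immortalized range of 21.2 to 22.6. Bulk RNA cannot tell fewer cells expressing a gene from less RNA per cell.

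**Figure D1:**
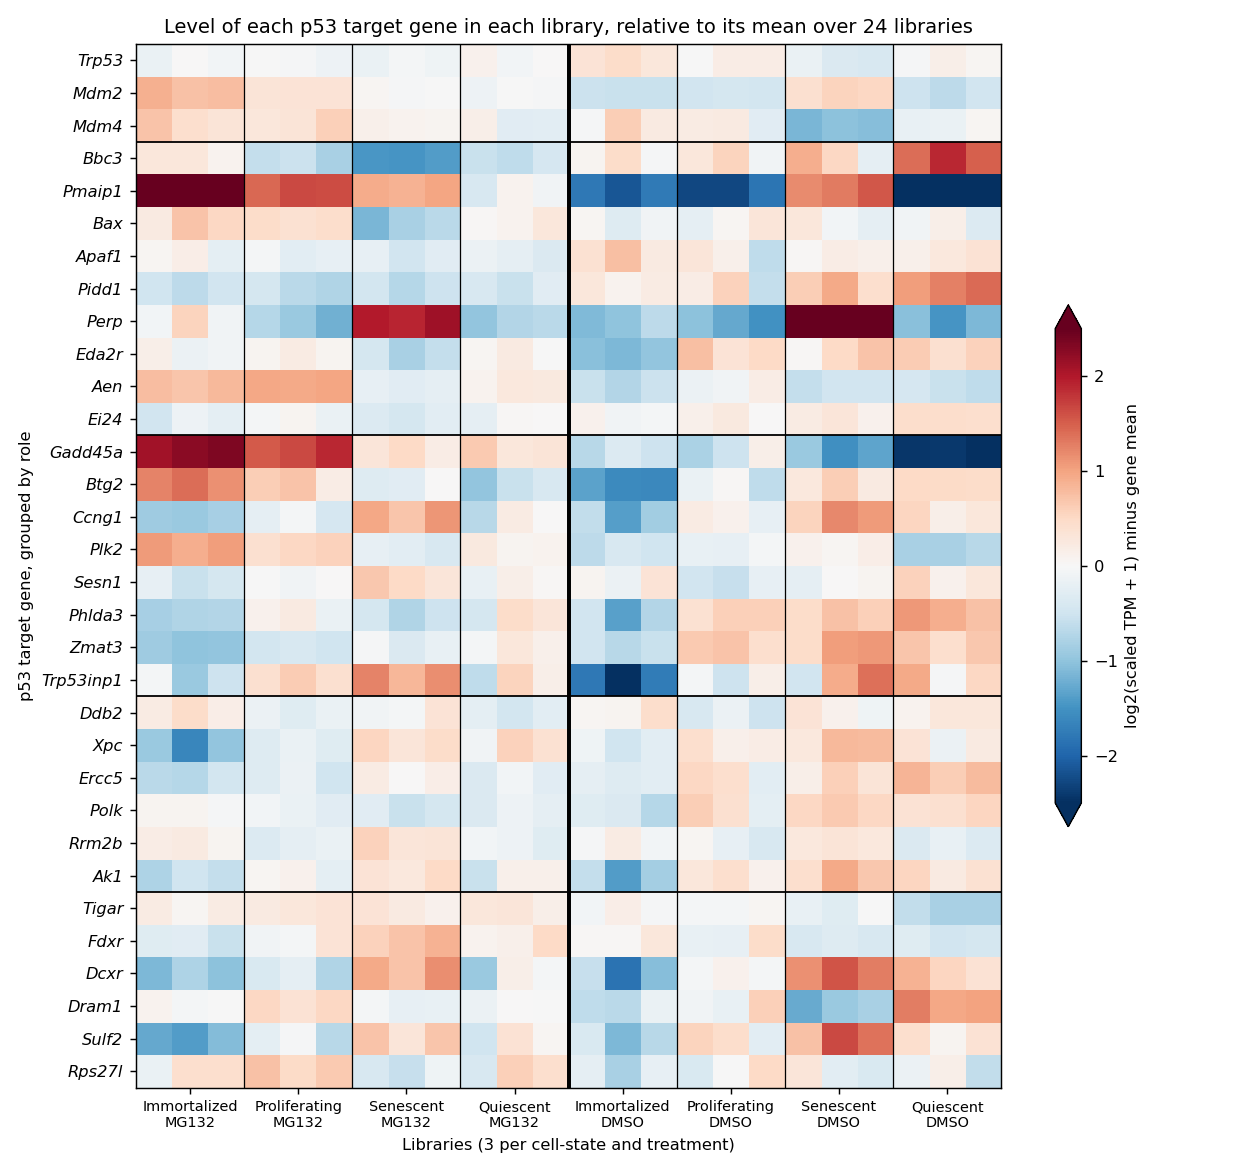
Each cell is the log2(scaled TPM + 1) of 1 of the 32 genes in 1 library minus the gene's mean over the 24 libraries, with MG132 libraries on the left and DMSO libraries on the right. The 3 immortalized DMSO libraries are blue for most genes of the cell cycle and growth block, and Pmaip1 is darkest red in the 3 immortalized MG132 libraries.

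Read pair by pair, 15 genes were lower and 4 higher in immortalized than in proliferating fibroblasts under DMSO (17.7% and 18.0% of tested genes), 16 lower and 5 higher than in senescent fibroblasts (30.8% and 29.3%), and 15 lower and 7 higher than in quiescent fibroblasts (25.1% in each direction). On TPM as deposited the last pair had 16 lower and 4 higher, against 3961 lower and 2639 higher of the 13489 tested genes. These comparisons share the immortalized libraries, so their counts are not independent. The 4 higher genes of the first pair became 2 without the second or the third immortalized DMSO library and 0 when only the 6 libraries compared were fitted with limma (2 at an unadjusted p under 0.05), and the 5 of the second pair became 3 without the third. The 15 lower genes of the first pair became 11 without the second immortalized DMSO library and 10 when only the 6 libraries compared were fitted. In the fit of those 6 libraries 976 of the 13489 tested genes were higher and 1485 lower. Genes of the cell cycle that the DREAM complex and E2F factors control moved in the other direction beside them. Against the p53-competent mean 33 of 34 were higher in immortalized DMSO libraries (median difference 1.96), against 28.4% of tested genes. By pair, 17 were higher than in proliferating (median 1.33), 33 than in senescent (3.36) and 19 than in quiescent fibroblasts (1.24). Between quiescent and proliferating fibroblasts 0 of them were called (median 0.091). The 3 immortalized DMSO libraries had mean log2 levels of these 34 genes of 5.06, 6.57 and 4.73, and the 9 p53-competent ones ran between 1.88 and 4.71. The part of cell cycle state and of RB binding by T antigen in the levels of p53 targets cannot be told apart from loss of p53 activity in this design.

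Trp53 mRNA was higher in the fibroblasts that carried T antigen. It stood at 165, 178 and 158 scaled TPM in immortalized DMSO libraries, against 129, 146 and 147 in proliferating, 115, 99.9 and 97.1 in senescent and 126, 144 and 134 in quiescent ones. All 3 immortalized libraries were above the other 9, and the difference from their mean was 0.41 (SE 0.07, adjusted p = 0.000103). Against proliferating fibroblasts it was 0.25 (SE 0.09, adjusted p = 0.0395), the pair with the smallest difference.

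Mdm2, the ubiquitin ligase of the feedback loop, had 86.7, 86.02 and 85.7 scaled TPM in immortalized DMSO libraries, against 90.3, 93.9 and 92.2 in proliferating, 168, 187 and 183 in senescent and 88.7, 79.98 and 90.3 in quiescent ones. The senescent libraries were thus far above the other 9, and immortalized libraries lay beside the proliferating and quiescent ones. The difference from the mean of the p53-competent cell-states, -0.38 (SE 0.06, adjusted p = 2.81e-05), came with -1.05 (SE 0.07, adjusted p = 1.11e-09) against senescent fibroblasts, while the 95% intervals were -0.25 to 0.06 against proliferating and -0.15 to 0.15 against quiescent fibroblasts. Mdm4, which binds p53 and masks its activation domain, had 20.8, 33.3 and 25.2 scaled TPM in immortalized, 24.9, 25.1 and 17.3 in proliferating, 9.05, 9.97 and 9.71 in senescent and 18.6, 18.9 and 22.1 in quiescent DMSO libraries. Senescent fibroblasts had the lowest Mdm4, and the difference of 0.65 (SE 0.14, adjusted p = 0.000453) from the mean rested on them, since neither of the other pairs was called (adjusted p = 0.319 against proliferating and 0.0669 against quiescent).

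Among the 9 apoptosis genes, Bbc3, Pmaip1, Pidd1, Perp, Eda2r, Aen and Ei24 were called lower in immortalized fibroblasts, and Bax and Apaf1 were not called. Eda2r, a death receptor of the TNF receptor family that binds ectodysplasin A2, was the only one of them lower in each pair. Its levels were 5.77, 5.41 and 5.999 scaled TPM in immortalized DMSO libraries, against 22.3, 16.6 and 18.7 in proliferating, 13.2, 18.7 and 21.7 in senescent and 20.4, 17.4 and 19.8 in quiescent ones. The immortalized libraries all lay below the lowest p53-competent one, a senescent library, with a difference of -1.54 (SE 0.12, adjusted p = 1.29e-08).

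The other 6 called apoptosis genes were lower against some cell-states only. Pmaip1, which encodes the BH3-only protein Noxa, had 11.8, 9.14 and 11.95 scaled TPM in immortalized DMSO libraries, against 8.15, 8.14 and 11.4 in proliferating, 99.7, 109 and 129.9 in senescent and 6.73, 4.62 and 4.32 in quiescent ones. The senescent libraries stood far above the other 9, and immortalized fibroblasts differed from quiescent ones by 0.96 (SE 0.16, adjusted p = 7.2e-05). Perp, a membrane protein of desmosomes that also takes part in apoptosis, had 23.9, 29.6 and 24.3 scaled TPM in senescent DMSO libraries and at most 1.11 in the other 9. Its call against the mean (-1.10, SE 0.15, adjusted p = 7.84e-06) therefore came from senescent fibroblasts alone, as the pairs with proliferating and quiescent fibroblasts were not called. Of the 7 keratinocyte markers in the table, the desmosome gene Dsp averaged 14.7 TPM in senescent DMSO libraries and at most 1.01 in the other DMSO groups, Krt14, Krt15 and Trp63 were at most 0.144 in all DMSO groups, and the 7 together summed to 11.3 to 23.8 TPM in senescent and 2.82 to 7.63 in the other DMSO libraries. Their part in the level of Perp was not tested.

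Bbc3, which encodes the BH3-only protein Puma, had 20.8, 27.6 and 19.4 scaled TPM in immortalized DMSO libraries, against 24.2, 29.5 and 18.5 in proliferating, 37.96, 28.6 and 16.8 in senescent and 53.6, 76.1 and 57.4 in quiescent ones. Quiescent libraries were the highest, and only the pair with them was called (-1.43, SE 0.21, adjusted p = 2.24e-05). Pidd1, the scaffold of the PIDDosome that activates caspase-2, was likewise highest in quiescent libraries, with means of 5.17 ± 0.411 in immortalized, 4.96 ± 2.25 in proliferating, 7.65 ± 1.62 in senescent and 11.9 ± 1.66 in quiescent DMSO libraries (SD, n = 3 each). Aen, a nuclease that cuts DNA in apoptosis, was lower against proliferating fibroblasts (-0.59, SE 0.09, adjusted p = 5.33e-05) and not called against the other cell-states. Ei24, an endoplasmic reticulum protein of autophagy and apoptosis, was lower against quiescent fibroblasts only (-0.45, SE 0.10, adjusted p = 0.00137). Bax, which forms pores in the outer mitochondrial membrane, averaged 201 ± 25.4 in immortalized DMSO libraries and between 206 and 227 in the p53-competent ones, with a 95% interval of the difference of -0.39 to 0.19, and that of Apaf1, the core of the apoptosome, was 0.04 to 0.67.

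Of the 8 genes of the cell cycle and growth, Btg2, Ccng1, Plk2, Phlda3, Zmat3 and Trp53inp1 were lower in immortalized fibroblasts, Gadd45a was higher and Sesn1 was not called. Trp53inp1, a nuclear protein that binds p53 and also acts in autophagy, had 3.73, 1.79 and 3.85 scaled TPM in immortalized DMSO libraries, against 14.7, 10.3 and 17.1 in proliferating, 10.7, 29.8 and 41.5 in senescent and 30.4, 14.9 and 22.2 in quiescent ones. The senescent libraries spread widely among themselves, yet all 9 p53-competent libraries were above the 3 immortalized ones, and the difference of -2.34 (SE 0.31, adjusted p = 5.31e-06) was the largest of the 32 genes.

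Btg2, an antiproliferative partner of the CCR4-NOT deadenylase, had 11.6, 9.57 and 9.52 scaled TPM in immortalized DMSO libraries, against 27.5, 31.7 and 19.7 in proliferating, 37.3, 47.8 and 36.5 in senescent and 44.4, 43.7 and 42.7 in quiescent ones, a difference of -1.71 (SE 0.14, adjusted p = 2.31e-08). The lowest p53-competent library was the third proliferating one, and it too was above all immortalized libraries. Phlda3, which competes with Akt for membrane lipids, had 89.6, 48.01 and 74.9 in immortalized, 164, 189 and 189.9 in proliferating, 173, 210.2 and 191 in senescent and 268, 236 and 209.9 in quiescent DMSO libraries (-1.54, SE 0.17, adjusted p = 5.14e-07). The second immortalized library was the lowest for Phlda3, Trp53inp1 and Ccng1. Ccng1, cyclin G1, whose promoter carries the half-site printed first above, had 122, 71.7 and 103 in immortalized, 216, 203 and 162 in proliferating, 275, 432 and 393 in senescent and 273, 206 and 227 in quiescent DMSO libraries (-1.38, SE 0.18, adjusted p = 3.79e-06), so that no immortalized library reached the p53-competent range. Zmat3, a zinc finger protein that binds RNA, differed by -1.17, -1.44 and -1.17 in the pairs with proliferating, senescent and quiescent fibroblasts.

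Gadd45a, a stress protein that binds PCNA and restrains the G2/M transition, went the other way. It had 86.3, 111 and 98.7 scaled TPM in immortalized DMSO libraries, against 80.9, 98.7 and 157 in proliferating, 73.97, 48.3 and 55.8 in senescent and 25.2, 25.7 and 20.3 in quiescent ones. Immortalized and proliferating libraries overlapped (adjusted p = 0.624), and the difference of 0.87 (SE 0.16, adjusted p = 0.000124) from the mean came from the low quiescent and senescent levels. Plk2, a polo-like kinase of centriole duplication, was lower than in proliferating and senescent fibroblasts (-0.37 and -0.62) and higher than in quiescent ones (0.26, SE 0.09, adjusted p = 0.0214). Sesn1, a sensor protein that restrains mTORC1, was low throughout, from 2.06 to 5.79 scaled TPM in the 12 DMSO libraries, and was higher only against proliferating fibroblasts (0.51, SE 0.16, adjusted p = 0.0173).

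**Figure D2:**
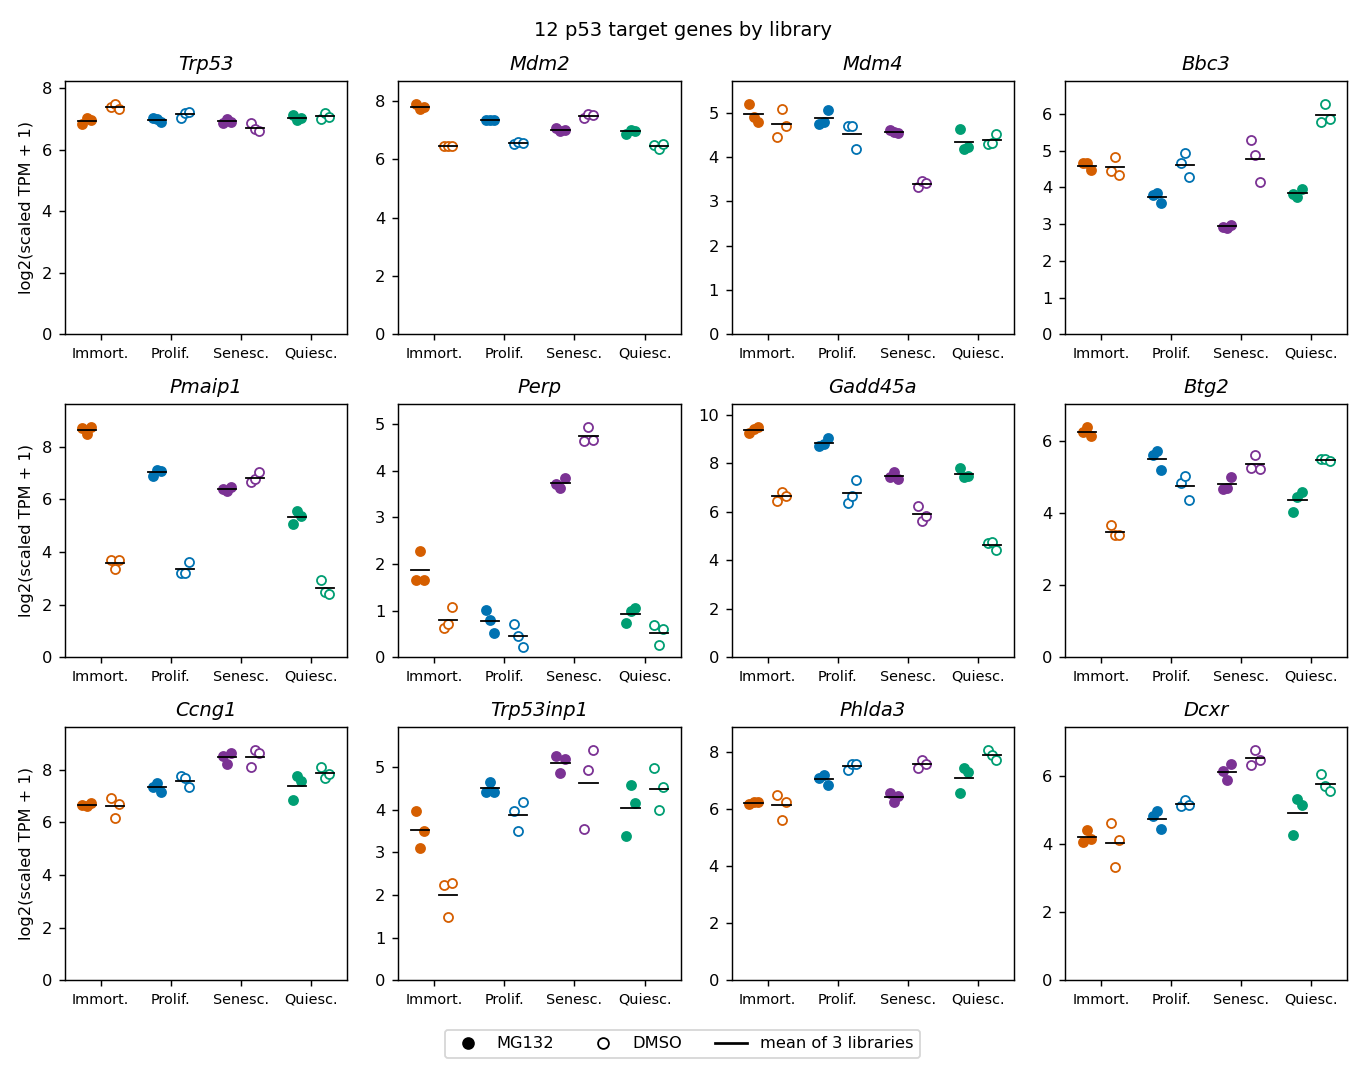
Each point is 1 library, on the scale of log2(scaled TPM + 1), for 12 of the 32 genes, with filled points for MG132, open points for DMSO and a line at the mean of 3 libraries. Ccng1, Trp53inp1, Phlda3 and Dcxr have their lowest open points in immortalized fibroblasts, and Perp and Pmaip1 have their highest open points in senescent ones.

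In the set of DNA repair and nucleotide genes, Polk, Xpc, Ercc5 and Ak1 were lower in immortalized fibroblasts and Ddb2 and Rrm2b were not called. Ak1, the cytosolic adenylate kinase, averaged 61.2 ± 16.8 scaled TPM in immortalized DMSO libraries, against 140.4 ± 15.8 in proliferating, 189 ± 35.01 in senescent and 152 ± 16.1 in quiescent ones (SD, n = 3 each), a difference of -1.39 (SE 0.16, adjusted p = 1.04e-06). Polk, a translesion DNA polymerase, had 7.98, 7.58 and 5.799 in immortalized libraries and ran from 8.42 to 16.4 with a median of 14.8 over the 9 p53-competent ones, where the third proliferating library was the lowest. Ercc5, the endonuclease that cuts beside a lesion in nucleotide excision repair, was lower in each pair as well (-0.49, -0.62 and -1.02 against proliferating, senescent and quiescent fibroblasts). Xpc, which finds the lesion in that pathway, averaged 4.13 ± 0.683 in immortalized DMSO libraries and was lower against proliferating (-0.53, SE 0.20, adjusted p = 0.0476) and senescent (-0.91, SE 0.20, adjusted p = 0.000686) fibroblasts. Ddb2, the other damage sensor, lay near the detection filter, between 0.975 and 2.86 scaled TPM in the 12 DMSO libraries, and Rrm2b, the p53-inducible subunit of ribonucleotide reductase, between 4.16 and 7.58.

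In the last set, Dcxr, Dram1 and Sulf2 were lower in immortalized fibroblasts, Tigar and Fdxr were higher and Rps27l was not called. Dcxr, a reductase of xylulose and other carbonyls, had 23.5, 9.13 and 16.4 scaled TPM in immortalized DMSO libraries, against 34.2, 38.4 and 34.5 in proliferating, 79.9, 108 and 88.3 in senescent and 66.2, 51.96 and 45.9 in quiescent ones. The groups did not overlap, although the second immortalized library was far below the first, and the difference was -1.81 (SE 0.22, adjusted p = 1.89e-06). Sulf2, an extracellular heparan sulfate sulfatase, differed by -1.33 (SE 0.21, adjusted p = 3.62e-05). Dram1, a lysosomal membrane protein of autophagy, had no common direction, being lower than in proliferating and quiescent fibroblasts (-0.60 and -1.57) and higher than in senescent ones (0.51, SE 0.17, adjusted p = 0.0167). Tigar, a phosphatase that lowers glycolytic flux, was higher by 0.33 (SE 0.08, adjusted p = 0.00233), and this came from quiescent fibroblasts (0.77). Fdxr, the ferredoxin reductase of mitochondria, was higher by 0.37 (SE 0.14, adjusted p = 0.0244) and was called against senescent and quiescent fibroblasts. Rps27l is a near copy of Rps27, and the sources used here do not say how reads were split between them, so its level is uncertain. Exons of Sulf2, Ddb2, Gadd45a and Rrm2b overlap exons of Ncoa3, Acp2, E230016M11Rik and Gm49085 on the other strand, and although the libraries were strand-specific, mapping was described with default parameters and no strand setting, so reads of these pairs may not have been told apart. Exons of Bax overlap exons of the protein-coding gene Gm45808 on the same strand, where strand cannot separate reads. Gm45808 was not in the deposited table.

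The p53-competent cell-states differed among themselves as well. In senescent against proliferating DMSO libraries 11 genes were higher and 5 lower (21.0% and 19.8% of tested genes). Those higher were Mdm2, Pmaip1, Ccng1, Perp, Rrm2b, Ddb2, Pidd1, Sulf2, Dcxr, Btg2 and Plk2, led by Perp (4.29, SE 0.19, adjusted p = 2.28e-12) and Pmaip1 (3.48, SE 0.16, adjusted p = 3.04e-12), and those lower were Trp53, Mdm4, Aen, Dram1 and Gadd45a. The counts fell to 6 and 3 when only the 6 libraries compared were fitted, where 1670 of the 13489 tested genes were higher and 1322 lower. The 11 higher genes became 9 without the third proliferating DMSO library. In quiescent against proliferating DMSO libraries 8 genes were higher and 5 lower (15.5% and 14.7% of tested genes), led by Bbc3 (1.35, SE 0.21, adjusted p = 9.13e-05) and Pidd1 (1.18, SE 0.21, adjusted p = 0.000239) upward and by Gadd45a (-2.15, SE 0.19, adjusted p = 1.06e-07) downward. Pmaip1 was higher in senescent and lower in quiescent than in proliferating fibroblasts (3.48 and -0.72).

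Under MG132 the direction was no longer one-sided. Against the mean of the p53-competent cell-states, 11 genes were higher and 11 lower in immortalized fibroblasts, against 30.5% and 32.5% of tested genes, and the median difference was 0.021, against -0.025 over all tested genes. On TPM as deposited, which carry the shift of -0.45 given above, 5 were higher and 19 lower, against 11.04% and 58.8% of tested genes. Higher in all of the 3 pairs were Mdm2, Bbc3, Pmaip1, Gadd45a, Btg2 and Plk2 (12.4% of tested genes), and lower in all of them were Ccng1, Zmat3, Xpc, Sulf2, Ak1 and Fdxr (11.9%). As deposited these counts were 2 higher and 10 lower, against 3.83% and 19.9% of tested genes, and without the second proliferating MG132 library the 6 lower genes became 2. All 3 immortalized MG132 libraries lay above all 9 p53-competent ones for 7 genes, those 6 and Polk, and below them for Ccng1, Sesn1, Zmat3, Xpc, Sulf2 and Fdxr, where 16.1% of tested genes did so in each direction.

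**Figure D3:**
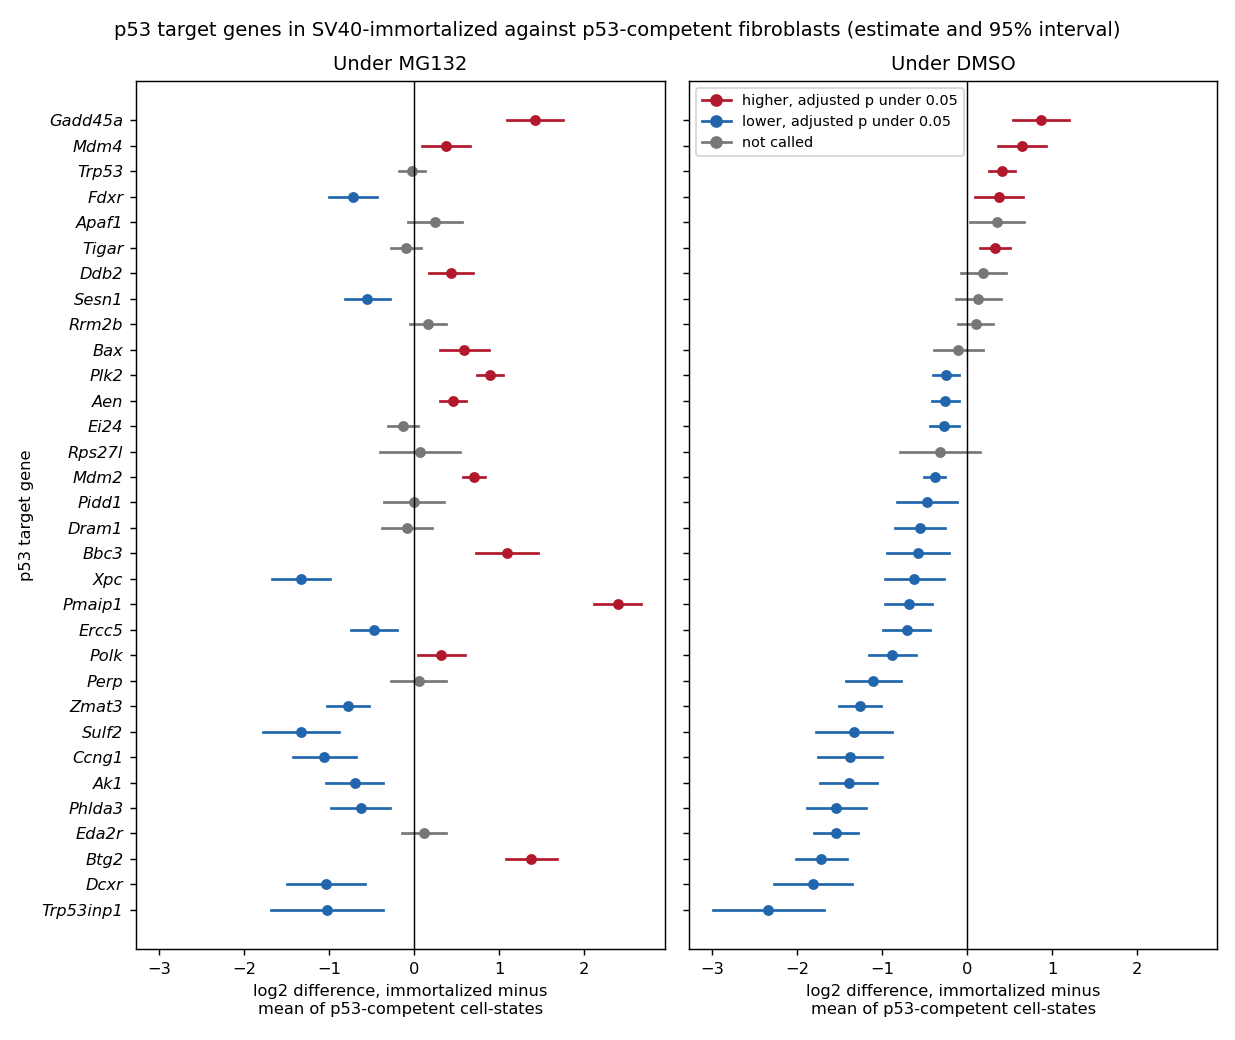
Points are the log2 difference of immortalized minus the mean of p53-competent fibroblasts for each of the 32 genes, with the 95% interval from limma, under MG132 on the left and DMSO on the right, in the order of the DMSO difference. Under DMSO 21 genes lie to the left of 0 and are called, and under MG132 11 genes are called on each side, with Btg2 and Pmaip1 to the right of 0 there and to the left of 0 under DMSO.

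The largest difference under MG132 was that of Pmaip1. It had 419, 355 and 430.5 scaled TPM in immortalized MG132 libraries, against 119, 138 and 136 in proliferating, 83.4, 79.9 and 86.9 in senescent and 32.4, 45.99 and 40.7 in quiescent ones (2.39, SE 0.13, adjusted p = 7.38e-11). All immortalized libraries were far above the highest p53-competent one, which was proliferating. Gadd45a reached 609.7, 681 and 718 in immortalized MG132 libraries, against 412, 446 and 521 in proliferating, 173, 200.4 and 161 in senescent and 223, 172 and 175 in quiescent ones (1.42, SE 0.16, adjusted p = 5.68e-07), with proliferating fibroblasts the nearest. Btg2 had 74.8, 82.5 and 69.6 in immortalized MG132 libraries, against 47.8, 51.5 and 35.4 in proliferating, 24.5, 25.1 and 31.1 in senescent and 15.2, 20.8 and 23.1 in quiescent ones (1.37, SE 0.14, adjusted p = 2.57e-07), so that the cell-state with the lowest Btg2 under DMSO had the highest under MG132.

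Bbc3 had 24.1, 24.4 and 21.2 scaled TPM in immortalized MG132 libraries, against 12.8, 13.3 and 10.8 in proliferating, 6.62, 6.499 and 6.84 in senescent and 13.1, 12.4 and 14.6 in quiescent ones (1.09, SE 0.17, adjusted p = 2.78e-05). Its immortalized level was close to that under DMSO, and the p53-competent levels were the ones that differed from DMSO. Plk2 (0.89, SE 0.07, adjusted p = 1.64e-08) and Mdm2 (0.70, SE 0.06, adjusted p = 2.62e-08) had narrow groups that did not overlap, with Mdm2 at 235, 211 and 217 in immortalized MG132 libraries and from 116 to 162 with a median of 126 in p53-competent ones. Mdm4 differed by 0.37 (SE 0.14, adjusted p = 0.024), and by -0.19 on TPM as deposited, and Trp53 by -0.03 (SE 0.07, adjusted p = 0.746), with 114, 130.3 and 123 scaled TPM in immortalized MG132 libraries and from 115 to 139 with a median of 125 in p53-competent ones. Also higher were Bax, Aen, Polk and Ddb2, of which Aen and Polk took the other sign on TPM as deposited (-0.12 and -0.20). The call of Polk was also lost in 9 of 24 fits that left out 1 library (adjusted p in limma of up to 0.113).

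On the lower side, Xpc had 2.28, 1.002 and 2.12 scaled TPM in immortalized MG132 libraries, against 3.94, 4.52 and 4.03 in proliferating, 7.98, 6.68 and 7.48 in senescent and 4.86, 8.29 and 7.12 in quiescent ones (-1.33, SE 0.17, adjusted p = 1.84e-06). Sulf2 (-1.33, SE 0.21, adjusted p = 3.04e-05), Ccng1 (-1.06, SE 0.18, adjusted p = 5.22e-05), Dcxr (-1.04, SE 0.22, adjusted p = 0.000452) and Trp53inp1 (-1.03, SE 0.31, adjusted p = 0.00789) stayed below the p53-competent mean. For Ccng1 the immortalized MG132 libraries had 101, 97.7 and 105 scaled TPM and the p53-competent ones ran from 116 to 402 with a median of 189.7, so the groups did not overlap under either treatment. Trp53inp1 at 14.6, 7.58 and 10.3 overlapped the lowest quiescent library, and its pairs with proliferating and quiescent fibroblasts were not called (adjusted p = 0.0529 and 0.257).

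The response to MG132 itself was next taken in each cell-state. In immortalized fibroblasts 12 of the 32 genes rose and 8 fell, against 26.6% of tested genes in each direction. In proliferating fibroblasts 8 rose and 7 fell (25.2% and 24.8%), in senescent fibroblasts 7 rose and 14 fell (22.7% and 23.4%), and in quiescent fibroblasts 7 rose and 14 fell (25.3% and 26.9%). The median response of the 32 genes was 0.16 in immortalized, -0.0067 in proliferating, -0.35 in senescent and -0.39 in quiescent cells, where all tested genes had medians of 0.011, -0.021, -0.034 and -0.023. The 8 falls in immortalized fibroblasts became 5 without the first or the third immortalized DMSO library, and the 7 in proliferating fibroblasts became 3 without the first proliferating DMSO library. The 8 rises in proliferating fibroblasts became 6 without the first and 11 without the third proliferating DMSO library. On TPM as deposited 7 rose and 17 fell in immortalized fibroblasts, against 7.64% and 56.5% of tested genes, and 3 rose and 18 fell in proliferating ones, against 8.38% and 53.2%. As a check of the treatment, the 15 HSF1 targets, which encode heat shock proteins and their partners, rose in every cell-state, with median responses of 3.53 in immortalized, 3.27 in proliferating, 1.82 in senescent and 2.13 in quiescent cells.

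**Figure D4:**
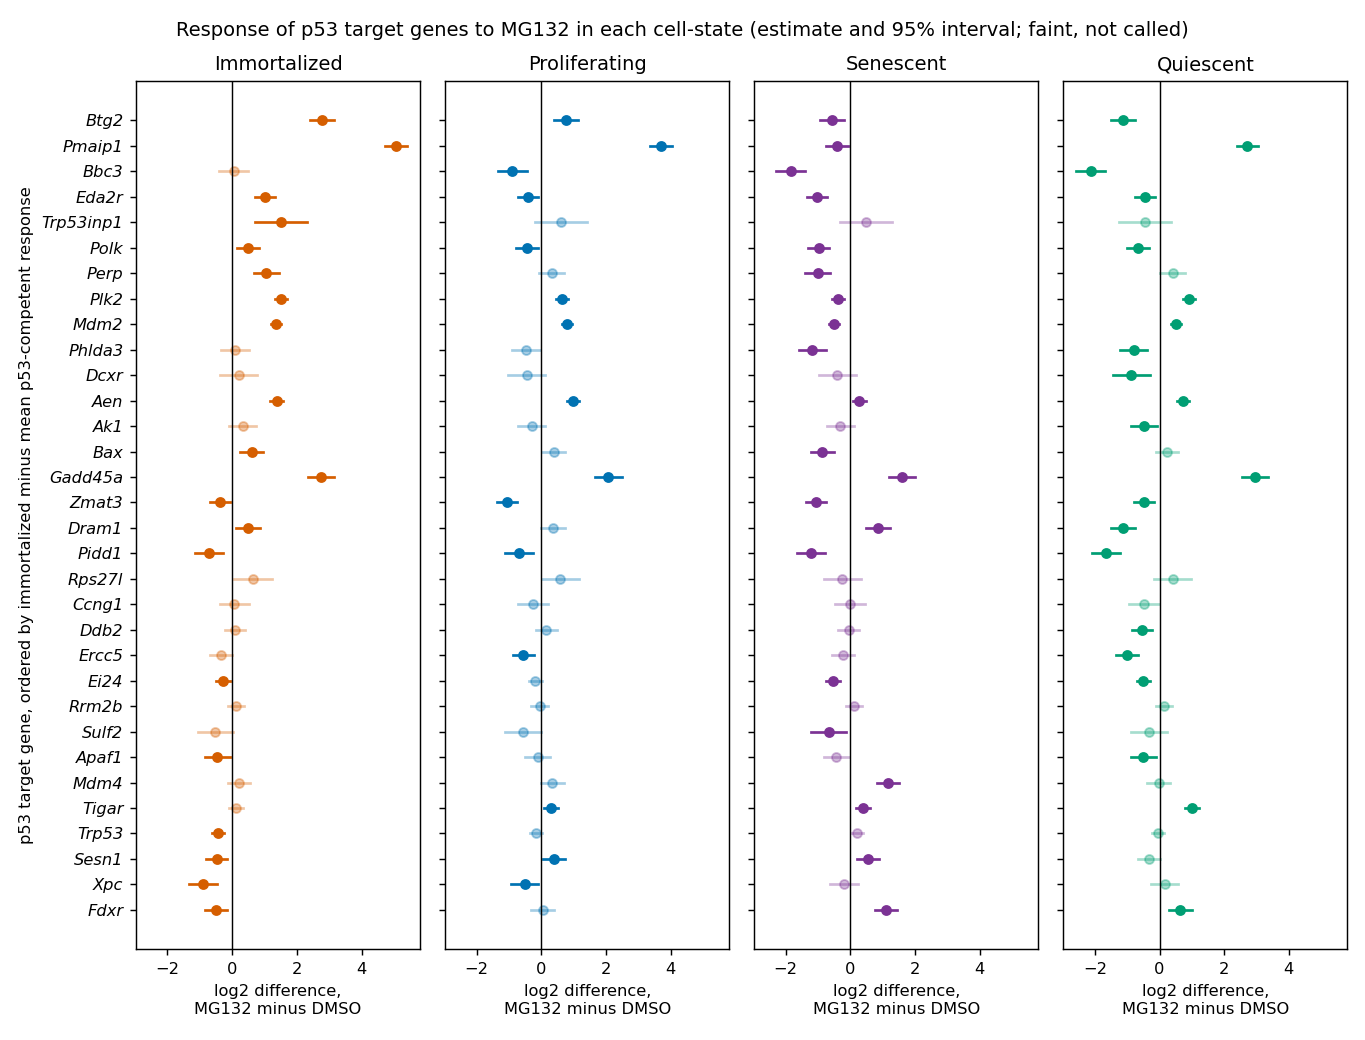
Points are the log2 difference of MG132 minus DMSO with the 95% interval from limma in immortalized, proliferating, senescent and quiescent fibroblasts, with genes ordered by the immortalized response minus the mean p53-competent response and uncalled genes drawn faint. Gadd45a lies to the right of 0 in all 4 panels, and Bbc3 lies near 0 in immortalized fibroblasts and to the left of 0 in the other 3.

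Gadd45a and Aen rose in all 4 cell-states, and Zmat3 and Pidd1 fell in all 4. Gadd45a rose by 2.76 in immortalized, 2.07 in proliferating, 1.59 in senescent and 2.95 in quiescent cells. Aen rose by 1.37, 0.98, 0.28 and 0.73 in the same cell-states. Pidd1 changed by -0.73, -0.68, -1.22 and -1.66, and Zmat3 by -0.38, -1.05, -1.06 and -0.47. The call of Aen in senescent fibroblasts (adjusted p = 0.0526) and that of Pidd1 in proliferating ones (adjusted p = 0.0872) were lost with only the groups compared. Among 24 fits that left out 1 library, these calls were lost in 2 and 1. The call of Zmat3 was lost in 4 such fits in immortalized and in 1 in quiescent fibroblasts.

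In immortalized fibroblasts the largest rises were Pmaip1 (5.07, SE 0.16, adjusted p = 1.32e-14), Btg2 (2.77, SE 0.17, adjusted p = 1.55e-10) and Gadd45a (2.76, SE 0.19, adjusted p = 6.97e-10), and the largest falls Xpc (-0.90, SE 0.20, adjusted p = 0.00088), Pidd1 (-0.73, SE 0.21, adjusted p = 0.00562) and Fdxr (-0.51, SE 0.17, adjusted p = 0.0143). Pmaip1 averaged 401 ± 40.8 scaled TPM under MG132 and 10.97 ± 1.59 under DMSO in these cells (SD, n = 3 each). Bax, Polk and Dram1 were called as rises there, and on TPM as deposited their differences were -0.17, -0.19 and -0.16.

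In proliferating fibroblasts the largest rises were Pmaip1 (3.70, SE 0.16, adjusted p = 8.02e-12), Gadd45a and Aen, and the largest falls Zmat3, Bbc3 (-0.89, SE 0.21, adjusted p = 0.00176) and Pidd1. Sesn1 and Tigar, called as rises, had differences of -0.053 and -0.26 on TPM as deposited, and these calls were lost in 11 and 4 of 24 fits that left out 1 library. In senescent fibroblasts the largest rises were Gadd45a, Mdm4 (1.17, SE 0.17, adjusted p = 1.17e-05) and Fdxr (1.09, SE 0.17, adjusted p = 2.44e-05), and the largest falls Bbc3 (-1.84, SE 0.21, adjusted p = 1.18e-06), Pidd1 and Phlda3 (-1.17, SE 0.20, adjusted p = 0.000104). The Mdm4 rise brought senescent fibroblasts to 23.4, 22.7 and 22.3 scaled TPM under MG132, against 9.05, 9.97 and 9.71 under DMSO. In quiescent fibroblasts the largest rises were Gadd45a, Pmaip1 (2.72, SE 0.16, adjusted p = 1.28e-10) and Tigar (0.996, SE 0.10, adjusted p = 3.09e-07), and the largest falls Bbc3 (-2.12, SE 0.21, adjusted p = 1.99e-07), Pidd1 and Dram1 (-1.13, SE 0.17, adjusted p = 2.82e-05).

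Mdm2 rose in immortalized (1.35, SE 0.07, adjusted p = 2e-11), proliferating (0.79, SE 0.07, adjusted p = 8.96e-08) and quiescent (0.50, SE 0.07, adjusted p = 1.65e-05) fibroblasts and fell in senescent ones (-0.49, SE 0.07, adjusted p = 2.03e-05). The senescent MG132 libraries had 131, 124 and 126 scaled TPM of Mdm2, against 168, 187 and 183 in senescent DMSO libraries, and those ranges did not overlap. Plk2 shared this pattern, with 1.52 in immortalized, 0.64 in proliferating, -0.39 in senescent and 0.91 in quiescent cells. So did Pmaip1, which fell to 83.4, 79.9 and 86.9 in senescent MG132 libraries, against 99.7, 109 and 129.9 in senescent DMSO libraries (-0.42, SE 0.16, adjusted p = 0.0367), a call that was lost in 5 of 24 fits that left out 1 library. Trp53 fell in immortalized fibroblasts (-0.44, SE 0.09, adjusted p = 0.000344) and was not called in the others.

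The responses were then compared with each other. The response of immortalized fibroblasts exceeded the mean p53-competent response for 14 of the 32 genes and was below it for 5, against 16.4% and 17.0% of tested genes. The DMSO libraries enter this difference too, so it is not independent of the differences under DMSO. All of the 14 except Bax were among the 21 genes lower in immortalized DMSO libraries. Of the 5, Trp53, Tigar and Fdxr were higher there, Xpc was lower and Sesn1 was not called. The median of this difference over the 32 genes was 0.48, against 0.022 over all tested genes. Taken against each p53-competent response alone, 7 genes were higher each time, Mdm2, Bbc3, Pmaip1, Eda2r, Polk, Btg2 and Plk2, against 3.66% of tested genes, and 0 were lower each time, against 3.76%. At an unadjusted p under 0.05 in limma, Trp53 and Fdxr (2 genes) were lower each time, limma without its trend also gave 0, and 1 gene was called without the third proliferating DMSO library. On TPM as deposited, with a shift of all tested genes by -0.37, the response was higher for 8 and lower for 7 genes, against 7.12% and 41.2% of tested genes, and higher each time for 4 genes and lower each time for 1, against 1.53% and 8.58%.

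Btg2 had the largest such difference (3.09, SE 0.20, adjusted p = 9.08e-10). It rose in immortalized and proliferating fibroblasts (2.77 and 0.76) and fell in senescent and quiescent ones (-0.57 and -1.13). Pmaip1 followed (3.08, SE 0.19, adjusted p = 2.88e-10), with an immortalized response above that of proliferating fibroblasts by 1.38 (SE 0.23, adjusted p = 0.000562). For Bbc3 the difference (1.67, SE 0.25, adjusted p = 3.47e-05) arose without a rise in immortalized fibroblasts, where its response was 0.05 (SE 0.21, adjusted p = 0.861), since it fell in the other 3 cell-states. Eda2r rose in immortalized fibroblasts only and fell in the others (1.66, SE 0.17, adjusted p = 6.07e-07), with 12.7 ± 1.496 scaled TPM under MG132 against 5.72 ± 0.298 under DMSO in immortalized fibroblasts. Its immortalized level under MG132 was within the range of the p53-competent MG132 libraries, which ran from 6.91 to 15.3 with a median of 13.3. Polk did the same, rising in immortalized (0.50, SE 0.16, adjusted p = 0.0139) and falling in proliferating (-0.44), senescent (-0.98) and quiescent (-0.67) fibroblasts, but its immortalized response was -0.19 on TPM as deposited, and its fall in proliferating fibroblasts was lost in 4 of 24 fits that left out 1 library.

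Trp53inp1 differed by 1.31 (SE 0.44, adjusted p = 0.0285), and only its pair with quiescent fibroblasts was called. Phlda3, Aen, Perp, Ak1, Bax and Zmat3 were also higher, by 0.48 for Zmat3 to 1.15 for Perp. Zmat3 itself fell in immortalized fibroblasts, Phlda3 and Ak1 were not called there, and these genes stayed below the p53-competent mean under MG132. Perp and Bax were called only in the pair with senescent fibroblasts, where both fell. The call was lost in 4 of 24 fits that left out 1 library for Zmat3 and in 3 each for Ak1, Trp53inp1 and Xpc. The 5 genes whose response was below the p53-competent mean were Fdxr (-1.10, SE 0.19, adjusted p = 0.000194), Xpc (-0.71, SE 0.23, adjusted p = 0.0233), Sesn1 (-0.69, SE 0.18, adjusted p = 0.00642), Trp53 (-0.44, SE 0.10, adjusted p = 0.00281) and Tigar (-0.43, SE 0.12, adjusted p = 0.00843). Fdxr fell in immortalized fibroblasts (-0.51) and rose in senescent and quiescent ones (1.09 and 0.64). The remaining 13 genes were not called, and their differences ran from -0.28 for Mdm4 to 0.77 for Dcxr.

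**Figure D5:**
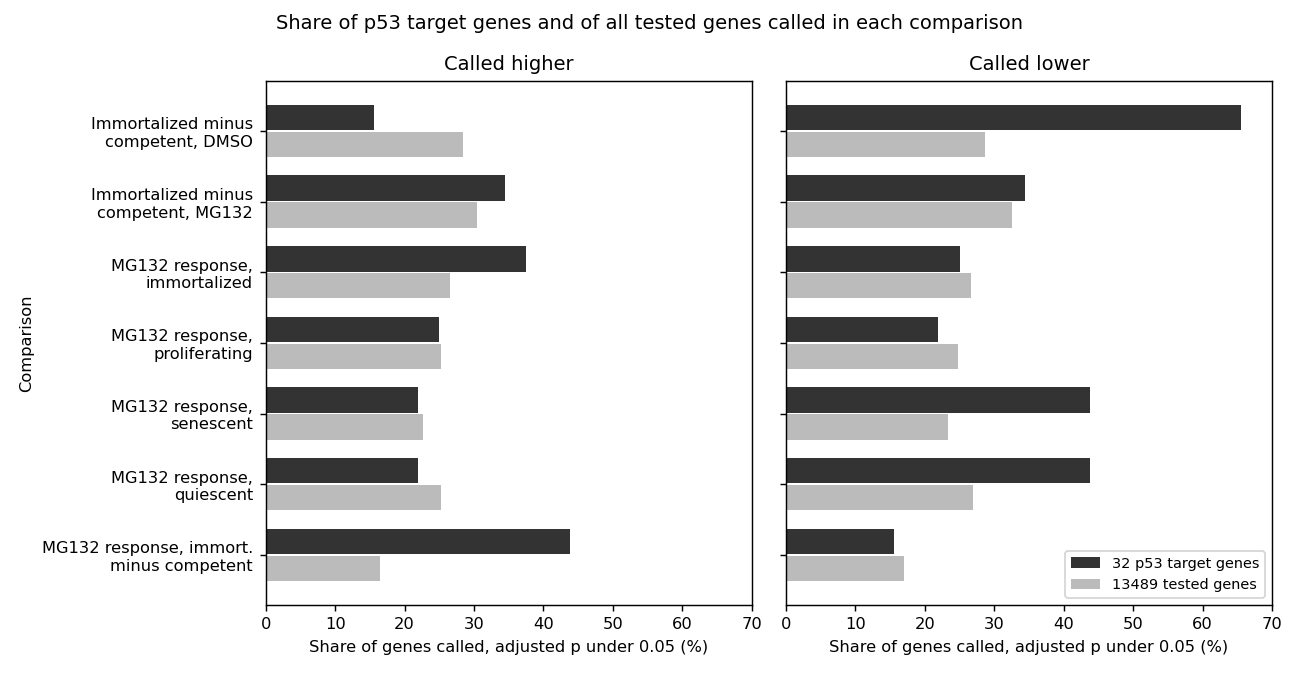
Bars give the share of the 32 p53 target genes (dark) and of the 13489 tested genes (light) called higher (left panel) or lower (right panel) in each comparison, in percent. The longest dark bar is the 65.6% lower in immortalized fibroblasts under DMSO, against 28.6% of tested genes.

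Further lists place these genes beside the rest of the pathway. Of 38 other p53 targets that were tested, 13 were lower and 8 higher in immortalized DMSO libraries than in the p53-competent mean (median -0.09), against 28.6% and 28.4% of all tested genes, with Ckb (-2.46) and the death receptor Fas (-1.72) lowest and the mitochondrial glutaminase Gls2 (1.64) highest. Under MG132, 16 of these 38 were higher and 8 lower in immortalized fibroblasts (median 0.17), against 30.5% and 32.5% of tested genes. Their response was above the p53-competent mean for 11 and below it for 4 (median 0.28), against 16.4% and 17.0%, led by Thbs1, an extracellular thrombospondin (2.71), and Psrc1 (2.17). Of 27 tested regulators of p53, 13 were higher and 2 lower in immortalized DMSO libraries than in the p53-competent mean, led by the checkpoint kinase gene Chek1 (1.73) and the histone methyltransferase gene Kmt5a (1.17). ATF4 is a stress factor that also drives Pmaip1. Of 18 ATF4 targets, 15 were higher in immortalized DMSO libraries than in the p53-competent mean, against 28.4% of tested genes. But in the pair with proliferating fibroblasts 1 was higher and 2 were lower (median 0.15), against 18.0% and 17.7% of tested genes. In the pairs with senescent and quiescent ones 15 and 17 were higher, against 29.3% and 25.1%. Under MG132, 13 of the 18 rose in immortalized, 12 in proliferating, 10 in senescent and 17 in quiescent cells. Over all tested genes 26.6%, 25.2%, 22.7% and 25.3% rose. In senescent cells 2 of the 18 fell, against 23.4% of tested genes. The response of these 18 genes in immortalized fibroblasts was above the p53-competent mean for 1 gene and below it for 2, and that of the 15 HSF1 targets above it for 8 and below it for 0 (median 1.24). Over all tested genes 16.4% were above it and 17.0% below it. Against the proliferating response alone 0 of the 15 HSF1 targets were called by limma in either direction, with or without its trend (median 0.079, and 1 gene each way at an unadjusted p under 0.05), against 10 and 9 higher than the senescent and quiescent responses. Of all tested genes 6.09% were higher and 5.46% lower than the proliferating response, and 18.8% and 15.6% higher than the senescent and quiescent ones. The part of ATF4 and HSF1 in the responses of p53 targets was not tested.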

How the data were processed

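Poly(A) RNA of 24 libraries, 3 for each of 8 groups, was analysed, and groups were taken from the labels. The study's methods give trimming with Cutadapt, mapping with kallisto to mouse transcripts of GRCm38 with ERCC sequences, normalization to the spike-in with RUVg, and TPM from the normalized counts, while the submitters' notes name HISAT2, StringTie, edgeR, FastQC and cutadapt. The deposited table is titled as TPM normalized to ERCC, as in the methods, and what part the other tools had was not given in the sources used here. TPM for 19880 genes were deposited by the authors, and each library sums to the same total, which cancels a spike-in factor and keeps no depth.

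Size factors (median of ratios) were computed from the 13243 genes above 0 in all libraries and divided out. In R 4.3.3, limma 3.58.1 was run on log2(scaled TPM + 1), that is with a pseudocount of 1, with its trend of variance on mean level and 1 mean for each of the 8 groups (16 residual degrees of freedom), over 13489 genes with at least 1 TPM in at least 3 libraries. Benjamini-Hochberg adjustment covered all of these genes, comparison by comparison, and the call threshold was an adjusted p of 0.05. Comparisons were immortalized minus the mean of, and minus each of, the p53-competent cell-states under each treatment, MG132 minus DMSO in each cell-state, and the differences of these responses. The test was checked on simulated data with known changes.

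The 32 genes and the other lists were chosen with earlier results of these data known. Genes named by rule were Trp53, Mdm2 and Mdm4, the 5 largest called differences each way between immortalized and p53-competent fibroblasts under each treatment and between their responses, the 3 largest called rises and falls of each response, and up to 2 each way of other lists. Further genes were named after their values were seen. Alternatives were TPM as deposited, a pseudocount of 0.1 or of 5, a filter at 5 TPM or none, limma without its trend, a block for the replicate number, only the groups compared, and each library left out in turn. Promoters were from RefSeq and gene positions from GENCODE vM21. Figures were drawn with matplotlib 3.10.9.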

Additional observations from a re-analysis of the deposited data

Results flagged for a closer look

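For 19 genes the response to MG132 differed between cell-states, as the response of immortalized fibroblasts minus the mean response of proliferating, senescent and quiescent fibroblasts passed the test in limma (log2 differences with 9 p53-competent and 3 immortalized libraries per treatment). These were 14 higher and 5 lower of the 32, against 16.4% and 17.0% of all tested genes. The DMSO libraries enter this difference too, so it is not independent of the differences under DMSO. The 5 largest positive differences were 3.09 for Btg2, 3.08 for Pmaip1, 1.67 for Bbc3, 1.66 for Eda2r and 1.31 for Trp53inp1. They were followed by 1.19 for Polk, 1.15 for Perp, 1.13 for Plk2, 1.08 for Mdm2 and 0.91 for Phlda3, and by 0.71 for Aen, 0.69 for Ak1, 0.69 for Bax and 0.48 for Zmat3. The negative differences were -0.43 for Tigar, -0.44 for Trp53, -0.69 for Sesn1, -0.71 for Xpc and -1.10 for Fdxr. The call of Zmat3 was lost in 4 of 24 fits that left out 1 library, and those of Ak1, Trp53inp1 and Xpc in 3 each. For Eda2r and Polk all 3 immortalized MG132 libraries were above all 3 DMSO libraries, while the call in each p53-competent cell-state was a fall, but on TPM as deposited the immortalized response of Polk was -0.19.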

How the results depend on the processing

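Of 144 values of named genes with a call, 143 kept direction and call with a pseudocount of 0.1, 139 with 5, 138 without a filter, all 142 that remained with a filter at 5 TPM, 143 with limma without its trend, and 110 of 125 with only the groups compared, where 15 lost the call. TPM as deposited kept 120, lost the call of 16 and turned the direction of 8, namely Mdm4 (-0.19), Aen (-0.12) and Polk (-0.20) in immortalized minus p53-competent fibroblasts under MG132, Sesn1 (-0.053) and Tigar (-0.26) in the proliferating response, and Bax (-0.17), Polk (-0.19) and Dram1 (-0.16) in the immortalized response. That scaling also gave 5 higher and 19 lower genes under MG132, 2 higher and 10 lower in all of the 3 pairs there, 3 rises and 18 falls in proliferating and 7 and 17 in immortalized fibroblasts, 8 higher response differences, 4 higher and 1 lower in all of the 3 pairs, and under DMSO 4 higher than quiescent fibroblasts and 0 higher in all of the 3 pairs. That last count was also 0 with limma without the trend and with only the groups compared. Only the groups compared gave 0 genes higher and 10 lower in immortalized than in proliferating fibroblasts under DMSO, 6 higher and 3 lower for senescent minus proliferating fibroblasts, and 5 falls in immortalized fibroblasts. Over the 13489 tested genes the same fits gave 976 higher and 1485 lower, 1670 higher and 1322 lower, and 3083 falls.

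With each library left out in turn, 3339 of 3456 values of named genes kept direction and call and 117 lost the call. Under DMSO the genes higher in immortalized than in proliferating fibroblasts were 2 to 4, than in senescent ones 3 to 6, and in all of the 3 pairs 0 to 1. Those lower in immortalized than in proliferating fibroblasts were 11 to 15. Under MG132 the genes lower in all of the 3 pairs were 2 to 6, with 2 when the second proliferating MG132 library was out. Falls were 3 to 8 in the proliferating response, with 3 when the first proliferating DMSO library was out, and 5 to 9 in the immortalized response, and the genes lower in all of the 3 pairs of responses were 0 to 1. The 21 genes lower under DMSO against the p53-competent mean were 18 to 21.

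With a replicate block, 142 of the 144 values kept their call, and Sulf2 in senescent (-0.67, adjusted p = 0.0534) and Ak1 in quiescent fibroblasts (-0.48, adjusted p = 0.0579) lost it. On average, same-numbered libraries of different groups did not deviate together (mean correlation 0.0125 over 84 pairs, with 35 above 0.1, and -0.00486 over 168 pairs of other numbers). Single pairs ran from -0.659 to 0.573 and from -0.714 to 0.772. Same-numbered DMSO and MG132 libraries of a cell-state had -0.659 to -0.312 in quiescent and -0.281 to -0.0646 in senescent fibroblasts. Proliferating ones had -0.0515 to 0.208 and immortalized ones -0.14 to 0.402. The block left 5 genes higher and 21 lower under DMSO. Depth is unknown in TPM, so genes near 1 TPM such as Ddb2 and Perp have no counting interval.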
